A study of Mus musculus with 7 samples.

Results

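Cytosolic ribosomal proteins were examined on 7 Affymetrix 430A 2.0 arrays, each hybridized with RNA of a single whole FVB mouse embryo at E10.5. The family was defined as every probe set whose array annotation gives a single symbol made of Rpl or Rps, a number and at most an a, x or l, or Rplp0, Rplp1, Rplp2 or Rpsa, so that kinases such as Rps6ka1 were left out. It held 96 of the 22690 probe sets and represented 45 of the 12393 genes that have a probe set of their own. Of these, 85 probe sets of 43 genes, 22 of the large and 21 of the small subunit, passed the filter on low signals, as did 14554 probe sets in all. A further 102 probe sets carry several symbols that include a ribosomal protein, and they were kept apart and are given only as counts.

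The arrays represent 2 diabetes-exposed embryos with neural tube defects (NTD), 3 diabetes-exposed embryos in which no malformation was identified and 2 control embryos of a normal pregnancy. The diabetic dam was an FVB female treated with streptozotocin, which destroys insulin-producing cells, at 7 to 9 weeks of age, and had a blood glucose level above 250 mg/dl. All exposed embryos came from the same diabetic dam and both controls from a single untreated female. Diabetes and litter therefore cannot be told apart, and each p-value measures a difference against the spread between littermates. Values are MAS5 signals, the array intensities after scaling. Since whole embryos were used, fewer cells of a type and less RNA per cell cannot be told apart.

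The cytosolic ribosome translates all mRNAs made in the nucleus, and its large and small subunits each combine ribosomal RNA with a set of proteins present in a single copy or, for the stalk proteins, in several. The mRNAs of vertebrate ribosomal proteins begin with a tract of C and T at the cap, the terminal oligopyrimidine (TOP) tract, through which mTOR signalling adjusts their translation to growth conditions. Mouse mutants of single ribosomal protein genes are known for pigmented skin, short tails, skeletal defects and anaemia, and surplus Rpl5 and Rpl11 bind the p53 regulator Mdm2.

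The sequence at the start is shown for 7 genes that carry results below. Of these, 4 have a run of 6 or more C or T at the annotated start shown and 3 do not. Rps24 also has another annotated start, not shown, without such a run. Each line gives 30 bases of RefSeq sequence (GRCm38.p6), from 10 bases before the annotated start, and capitals mark the longest unbroken run of C or T that has a base within 5 bases of it.
Rps10 (chr17:27635225-27635254, minus strand): gcgcacgCCCCTTCCTTTCCagcctccgcc
Rps24 (chr14:24490668-24490697, plus strand): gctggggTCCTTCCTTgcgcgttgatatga
Rpl38 (chr11:114668570-114668599, plus strand): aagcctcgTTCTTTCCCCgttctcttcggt
Rplp2 (chr7:141447641-141447670, plus strand): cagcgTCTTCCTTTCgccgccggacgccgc
Rpl39 (chrX:37085203-37085232, minus strand): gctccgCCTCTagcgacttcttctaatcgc
Rpsa (chr9:120127756-120127785, plus strand): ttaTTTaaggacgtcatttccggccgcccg
Rps4x (chrX:102189372-102189401, minus strand): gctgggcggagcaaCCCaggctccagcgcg

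A start was annotated for 39 of the 45 genes, with 47 starts in all. A run of 6 or more C or T was found at 22 of the 47 starts (46.8%) and at 20.2% of the 32851 annotated mouse starts. The letters CCGGAAG or their complement CTTCCGG, which contain the core of ETS factor sites, were found between 250 bases before and 50 bases after the start for 20 of the 47 (42.6%), and for 8.86% of all starts. The CTTCC of this motif can overlap a run of C and T, and an annotated start need not be the cap site used in the embryo.

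Between exposed and control embryos, no ribosomal protein probe set was called by limma at an adjusted p under 0.05, in either direction, where 0.11% of all tested probe sets were called higher and 0.0618% lower. At an unadjusted p under 0.05, 10 of the 85 were higher in exposed embryos (11.8%; 7.63% of all tested probe sets) and 1 was lower (1.18%; 8.52% of all). The methods' t-test put 19 higher and 1 lower at this level, where it put 7.68% of all tested probe sets higher and 10.5% lower. After Benjamini-Hochberg adjustment it called 0 of the 85, and also 0 of all 14554 tested probe sets. The count of 10 was 20 without no-NTD embryo 3 (7.22% of all tested probe sets) and 5 without NTD embryo 1 (7.76%). The count of 1 was 0 without no-NTD embryo 2 (8.37% of all lower) or no-NTD embryo 3 (8.51%). A fit without control 1 or control 2 leaves a single control. In these fits the median log2 fold change of the family was 0.15 and 0.10.

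The differences of the family were small and mostly of the same sign. The log2 fold change was above 0 for 67 of the 85 probe sets (78.8%; 50.1% of all tested), with a median of 0.13, against 0.00 over all tested probe sets, but with quantile normalization it was above 0 for 34 of the 85 and its median was -0.03. The values ranged from -0.40 to 1.28, with quartiles of 0.03 and 0.19, and the median standard error of a single probe set was 0.12. All 5 exposed embryos were above both controls for 29 probe sets (34.1%; 11.4% of all tested) and below both for 1 (1.18%; 13.4% of all). The median was 0.15 for the 45 small-subunit and 0.10 for the 40 large-subunit probe sets, without quantile normalization. Of the 96 tested probe sets with several symbols, 79 had a log2 fold change above 0, with a median of 0.12, which was 0.01 with quantile normalization.

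**Figure D1:**
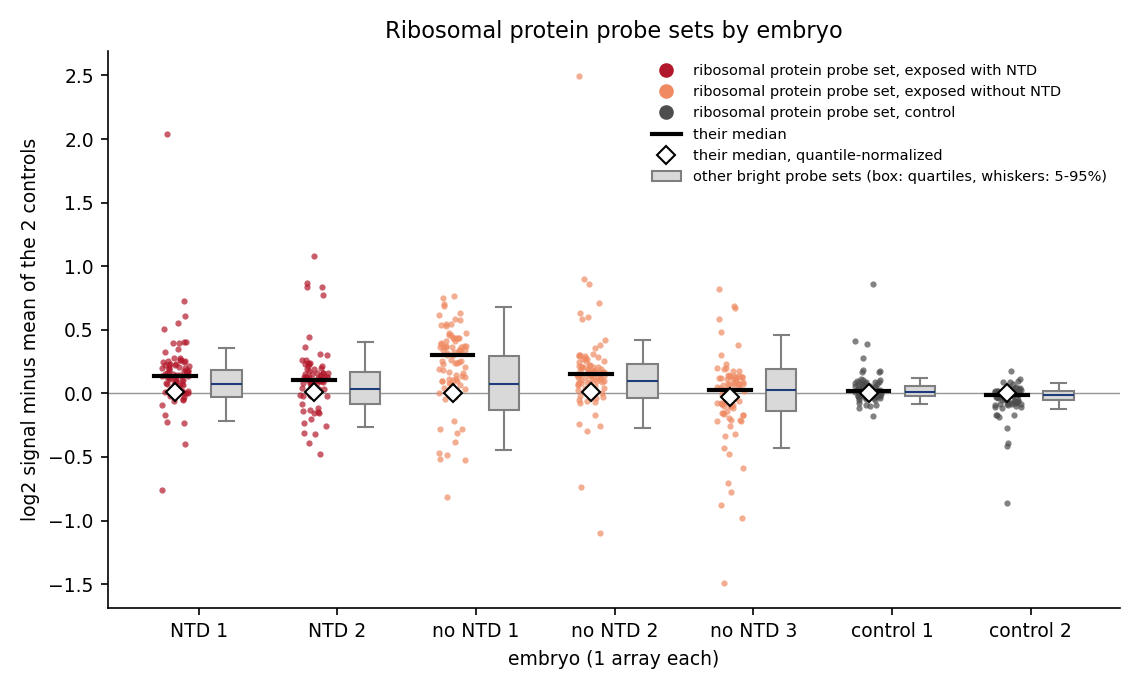
Each point is the log2 signal of a ribosomal protein probe set in 1 embryo minus the mean of the 2 controls (85 probe sets per embryo), with the median as a bar, and grey boxes show 615 other bright probe sets. Bars lie at 0.14, 0.11, 0.30, 0.15 and 0.02 in the exposed embryos from left to right and at 0.02 and -0.02 in the controls, and the diamonds, medians after quantile normalization, lie between -0.03 and 0.01.

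The embryos differed in this value within the exposed group. Relative to the mean of the controls, the median ribosomal protein probe set was at 0.14 and 0.11 on the log2 scale in the NTD embryos, at 0.30, 0.15 and 0.02 in the no-NTD embryos and at 0.02 and -0.02 in the controls. No-NTD embryo 1 thus stood highest and no-NTD embryo 3 overlapped the controls. Of the 85 probe sets, 49 had their highest signal of all 7 embryos in no-NTD embryo 1, against 8 and 3 in the NTD embryos, 15 and 7 in the other no-NTD embryos and 2 and 1 in the controls. The lowest signal was in no-NTD embryo 3 for 34 and in a control for 15 and 25. Both of these embryos are littermates without a malformation. No-NTD embryo 1 also had the highest signal for 207 of 615 other bright probe sets, which carry no ribosomal protein symbol and have a mean signal of at least 3518. These were not matched to the family in brightness, since their median mean signal was 5347 and that of the family 10629.

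Marker genes of several tissues were also high in no-NTD embryo 1. The summed signal of 10 measured markers of yolk sac endoderm and liver, 5 of them tested, was 24921 in this embryo, 1453 to 2548 in the other exposed embryos and 3060 to 3835 in the controls. Markers of primitive red cells, heart, somite and muscle, and trophoblast and decidua also had their highest sums in no-NTD embryo 1. Its neural tube sum, 10157, was below the 11797 of NTD embryo 1. Markers of primitive red cells summed to 64562 to 83885 in exposed embryos and 52238 to 54511 in controls (7 measured, 6 tested), those of heart to 7835 to 9874 in exposed embryos and 7539 to 7783 in controls (5 measured, 5 tested), those of neural tube to 8264 to 11797 in exposed embryos and 8651 to 9051 in controls (5 measured, 5 tested) and those of somite and muscle to 1335 to 1729 in exposed embryos and 1189 to 1198 in controls (4 measured, 3 tested). Each of the 6 tested red cell genes had all exposed embryos above both controls (11.4% of all tested probe sets), and the untested Hba-a1 overlapped. The genes within the heart sum and within the somite and muscle sum did not all go the same way. Of the somite and muscle genes, Meox1 read 913 to 1100 in exposed embryos and 605 in both controls. Myog read 183 to 244 in exposed embryos and 260 and 257 in controls, and Myf5 and Tcf15 overlapped. Of the heart genes, only Myh7 had all exposed embryos above both controls, and Actc1, the brightest, overlapped. The 3 measured trophoblast and decidua markers, none of which was tested, summed to 110 to 446 in exposed embryos and 104 to 144 in controls. The ratio of 3' to 5' signal of the Gapdh control probe sets was 0.822 to 0.915 in exposed embryos and 0.788 to 0.854 in controls. The part of these measures in the ribosomal protein signals was not tested. Without no-NTD embryo 1, the median log2 fold change of the family was 0.10, with 66 of 85 probe sets above 0, before quantile normalization.

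**Figure D2:**
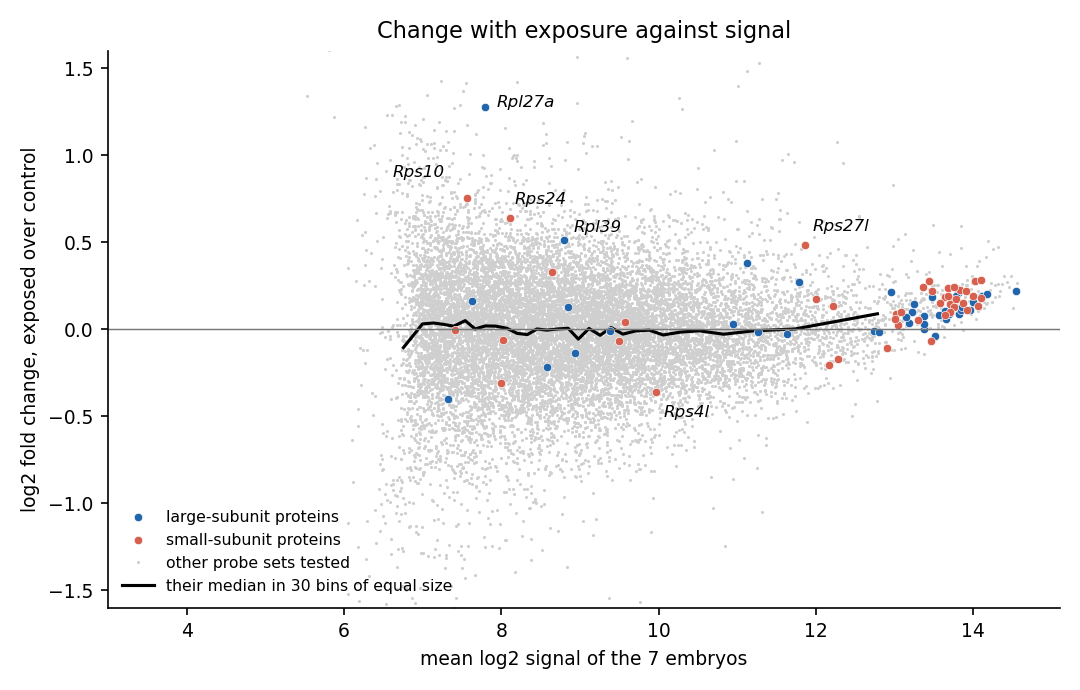
Log2 fold change of exposed over control embryos (vertical) against the mean log2 signal of the 7 embryos (horizontal) for the 85 ribosomal protein probe sets, coloured by subunit, and the other probe sets tested (grey; 52 lie outside the plotted range), with the median of the latter in 30 bins. The family's median is 0.13, or -0.03 with quantile normalization, next to 0.05 for the 615 other bright probe sets and 0.00 for all tested ones.

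The family lies at the bright end of the arrays, with a median mean signal of 10629, against 445 over all tested probe sets. The other bright probe sets also had more values above 0 than below, 390 of 615 (63.4%) with a median of 0.05, which was -0.02 with quantile normalization. Of the 615, 123 had all exposed embryos above both controls (11.4% of all tested probe sets) and 35 had all below both (13.4% of all). Within the family, 59 of the 68 probe sets with a mean signal of at least 1024 and 8 of the 17 dimmer ones had a log2 fold change above 0, with medians of 0.13 and 0.00. The shared difference was thus measured mostly on bright probe sets, and its sign differed between the deposited scaling and quantile normalization.

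Among small-subunit proteins, the smallest p belonged to Rps27l, a paralogue of Rps27 that p53 induces in human cells. The signal of its probe set 1435429_x_at was 4456 and 3982 in NTD embryos, 3619, 4391 and 4082 in no-NTD embryos and 3033 and 2827 in controls. All exposed embryos thus lay above both controls, with 4106 ± 338 (SD, n = 5) and 2930 ± 145 (SD, n = 2). The log2 fold change was 0.48 ± 0.11 (SE; limma adjusted p = 0.0979; exact two-sided permutation p = 0.048, the smallest that 21 splits allow). With quantile normalization it was 0.47. The other 2 probe sets of Rps27l gave 0.13 and 0.18.

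Rps10 and Rps24, both mutated in human Diamond-Blackfan anaemia, followed with dim probe sets. For Rps10, 1436384_at read 215 and 233 in NTD embryos, 222, 237 and 196 in no-NTD embryos and 139 and 123 in controls, with no overlap between exposed and control embryos (log2 fold change 0.75 ± 0.18, SE; limma adjusted p = 0.0984). For Rps24, 1455195_at read 296 and 346 in NTD embryos, 269, 313 and 357 in no-NTD embryos and 178 and 229 in controls, again without overlap (0.64 ± 0.17, SE; limma adjusted p = 0.13). Their quantile-normalized log2 fold changes were 0.75 and 0.63. Array quality weights, which give less weight to more variable arrays, called 1.49% of all tested probe sets higher and 1.88% lower in exposed embryos. These included both probe sets and that of Rps27l, 3 of the 85 members, at limma adjusted p = 0.0204 for Rps27l, 0.0285 for Rps10 and 0.0413 for Rps24. Over all alternatives the adjusted p reached 0.501, 0.499 and 0.695 in the same order, each without control 1.

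The remaining small-subunit probe sets of smallest p with a positive difference were bright. They were 1438723_a_at and 1434854_a_at of Rps10, with log2 fold changes of 0.24 and 0.28, and 1455572_x_at of Rps18, with 0.24, all with exposed embryos above both controls. With quantile normalization they were 0.07, 0.12 and 0.08.

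Rps4l, a paralogue of the X-linked Rps4x, was the single tested gene of the family with every exposed embryo below both controls. The signal was 1024 and 1039 in NTD embryos, 964, 718 and 947 in no-NTD embryos and 1186 and 1206 in controls, and the log2 fold change was -0.36 ± 0.16 (SE; limma unadjusted p = 0.0415, adjusted p = 0.293). Its quantile-normalized value was -0.35. Rps4x itself averaged 15929 ± 1975 in the 5 exposed embryos and 14674 ± 428 in the 2 controls (mean ± SD). The signals overlapped, with a log2 fold change of 0.11, or -0.08 with quantile normalization.

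The other small-subunit probe sets of smallest p with a negative difference all had overlapping groups. Their log2 fold changes were -0.31 and -0.07 for 1434624_x_at and 1433689_s_at of Rps9, a protein near the mRNA entry site, -0.17 for 1456628_x_at of Rps24, -0.11 for 1435593_x_at of Rps7 and -0.07 for 1430978_at of Rps25, which assists initiation at viral internal ribosome entry sites. Each of these genes except Rps25 also had a probe set with a positive value.

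Other small-subunit genes were described for their role. Rps6, the substrate of S6 kinase, read 739 and 800 in NTD embryos, 780, 889 and 642 in no-NTD embryos and 774 and 714 in controls, so that the controls lay inside the exposed range (1416142_at, log2 fold change 0.04 ± 0.14, SE). Its other probe set with a single symbol, 1453466_at, below the filter, read 58.1 and 45.2 in NTD embryos, 63.3, 74.4 and 65.5 in no-NTD embryos and 43.2 and 35.2 in controls, without overlap. A further 9 probe sets name Rps6 among several symbols and were kept apart, so these 2 do not cover all signal assigned to Rps6. Rps19 and Rps20, whose mouse mutants have dark skin, gave 0.02 for Rps19 and 0.10, 0.09 and 0.00 for the probe sets of Rps20. Rps7, whose mouse mutants have skeletal and eye defects, gave 0.15 with 1419364_a_at, on which all exposed embryos were above both controls, and -0.02 with quantile normalization. Rpsa, known also as a laminin receptor, read 16550 and 17658 in NTD embryos, 24747, 18177 and 16670 in no-NTD embryos and 15265 and 15217 in controls. Its log2 fold change was 0.28 ± 0.14 (SE; limma adjusted p = 0.358), to which no-NTD embryo 1 contributed the highest signal, and 0.05 with quantile normalization.

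**Figure D3:**
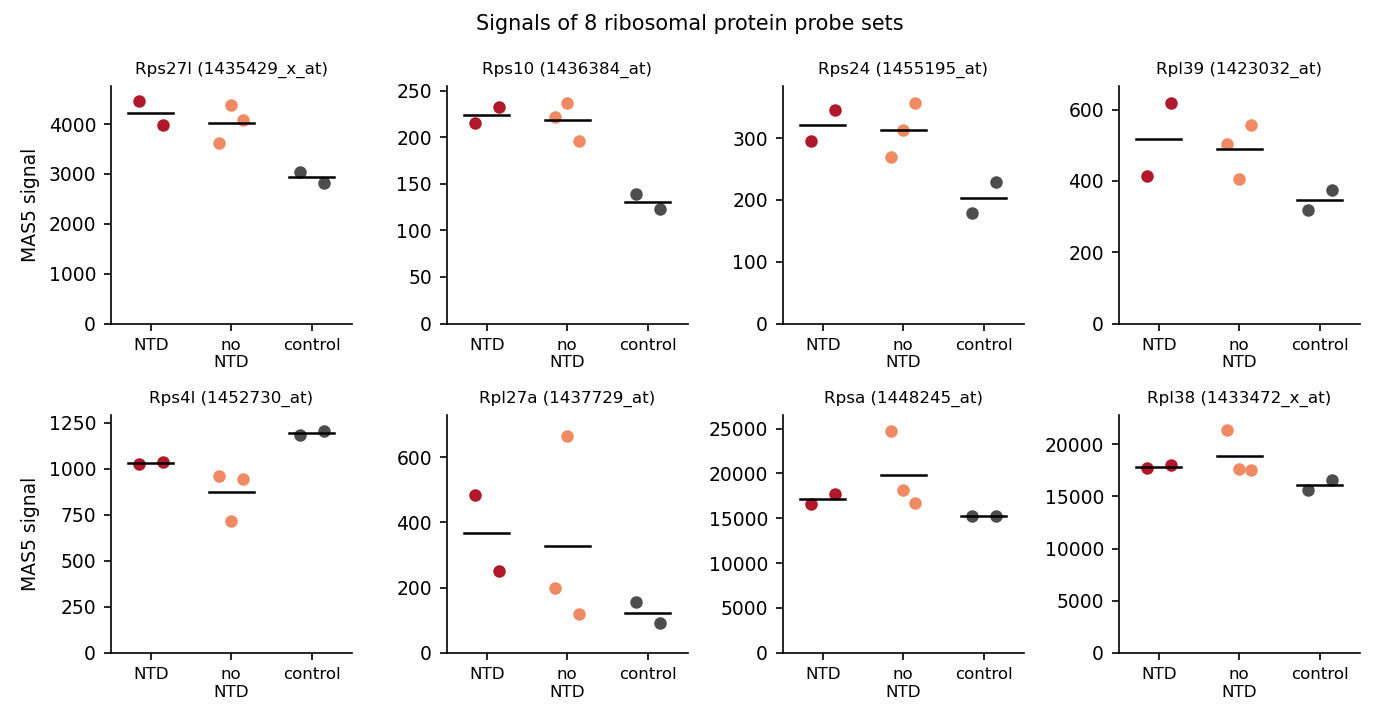
MAS5 signal (vertical, linear and from 0) of 8 probe sets, each with its own scale, in exposed embryos with NTD, exposed embryos without NTD and controls, where points are embryos and bars are group means. In these deposited signals, the 5 exposed embryos lie above both controls for Rps27l, Rps10, Rps24, Rpl39, Rpsa and Rpl38 and below both for Rps4l, and they overlap the controls for Rpl27a.

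Among large-subunit proteins, the smallest p belonged to Rpl39, an X-linked protein that lines the exit tunnel of the nascent chain. Its probe set read 414 and 619 in NTD embryos, 505, 405 and 556 in no-NTD embryos and 320 and 374 in controls. The lowest exposed embryo was close to the higher control, and the log2 fold change was 0.51 ± 0.19 (SE; limma adjusted p = 0.221), or 0.53 with quantile normalization. Rpl37 read 2627 and 2217 in NTD embryos, 2309, 2807 and 2114 in no-NTD embryos and 2081 and 1639 in controls. Its log2 fold change of 0.38 ± 0.15 (SE; limma adjusted p = 0.243) was the same with quantile normalization, and was 0.21 without control 2 and 0.55 without control 1.

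Rpl27a, whose mouse mutant has defects of the cerebellum and skin colour, had the largest difference of the tested members and the widest spread. The signal of 1437729_at was 485 and 250 in NTD embryos, 199, 665 and 120 in no-NTD embryos and 154 and 90.3 in controls. The groups overlapped, and the log2 fold change of 1.28 ± 0.55 (SE) had a limma adjusted p of 0.289. It was 0.89 without control 2 and 1.66 without control 1.

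The large-subunit probe sets of smallest p with a negative difference both belonged to Rpl41, which encodes a very short peptide. Its 1433530_at gave -0.40 ± 0.28 (SE) and its 1454639_x_at -0.14 ± 0.18 (SE), with overlapping groups. The bright 1455578_x_at of the same gene gave 0.22 ± 0.12 (SE) without quantile normalization, with all exposed embryos above both controls. On it no-NTD embryo 1 read 31036 and the other exposed embryos 23201 to 24094.

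Rpl38, whose loss of a copy alters the axial skeleton in Tail short mice, read 17688 and 17990 in NTD embryos, 21413, 17617 and 17522 in no-NTD embryos and 15614 and 16617 in controls. The exposed embryos lay above both controls, but the log2 fold change was 0.19 ± 0.10 (SE; limma adjusted p = 0.364), or -0.03 with quantile normalization. The stalk proteins Rplp0 and Rplp2, which recruit elongation factors, gave 0.13 ± 0.10 (SE) and 0.11 ± 0.14 (SE) with overlapping groups, or -0.05 and -0.11 with quantile normalization. Rpl11, which binds Mdm2, gave 0.10 ± 0.12 (SE), or -0.04 with quantile normalization.

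Of 22 genes chosen for their role, 15 had a probe set of their own, 5 (Rplp1, Rpl10, Rpl36a, Rpl5 and Rpl24) only probe sets shared with other symbols, and Rps27a and Rpl10l neither. The 11 members below the filter were the only probe sets of Rpl3l and Rpl39l and single or several probe sets of Rps18, Rpsa, Rpl27a, Rps4x, Rps24, Rps20 and Rps6. Rpl3l, a paralogue of Rpl3 made in muscle, read 11.3 and 30.5 in NTD embryos, 88.2, 12.4 and 5.7 in no-NTD embryos and 28.2 and 11.6 in controls. Of the Rps18 probe sets below the filter, 1421837_at had every exposed embryo below both controls, with 104 and 40.2 in NTD embryos, 43.5, 18.7 and 47.4 in no-NTD embryos and 112 and 118 in controls. The naming rules did not select this probe set. In 1421838_at and 1450390_x_at, the others of Rps18 below the filter, the groups overlapped.

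**Figure D4:**
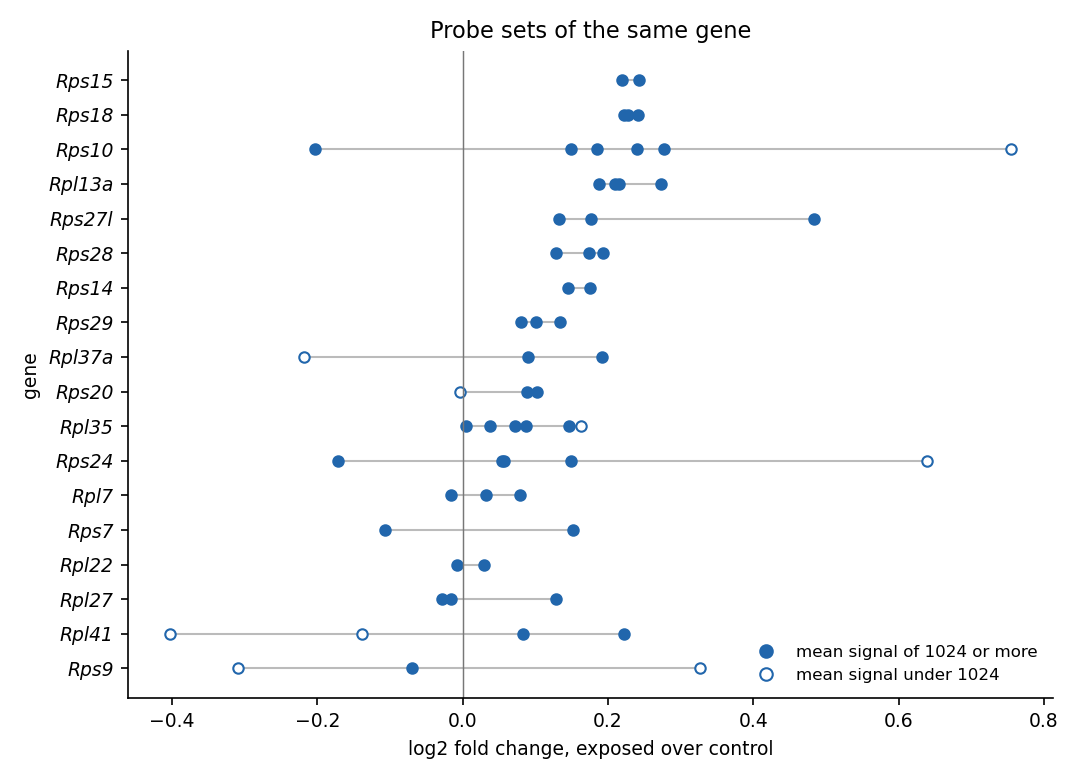
Log2 fold change of exposed over control embryos (horizontal) for every tested probe set of the 18 ribosomal protein genes with more than 1, ordered by their median, with open points for a mean signal under 1024. For 10 of the genes the probe sets fall on both sides of 0.

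Probe sets of the same gene did not always share a sign. Of 18 genes with more than 1 tested probe set, 10 had values on both sides of 0. Taking the brightest probe set of each gene, 36 of 43 genes were above 0 and 7 below, with a median of 0.13, before quantile normalization. Rps10 had the widest contrast. Its 1439374_x_at, chosen for mention after its values were seen, read 6701 and 4082 in NTD embryos, 3550, 9470 and 1810 in no-NTD embryos and 6750 and 3812 in controls, and so spanned 2.39 on the log2 scale among all embryos, while its 1416719_a_at read 12986 and 13465 in NTD embryos, 15416, 13352 and 13648 in no-NTD embryos and 12232 and 12564 in controls and spanned 0.33. Ribosomal protein genes have many processed pseudogenes, and 38 of the 85 probe sets bear the suffix x, with which Affymetrix marks probes that match other sequences too, so that their signals cannot be assigned to the named gene with certainty. The median log2 fold change was 0.12 for these 38 and 0.15 for the 25 with the suffix a, which marks probes of the same gene only, without quantile normalization.

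Between exposed embryos with and without NTD, no ribosomal protein probe set was called by limma at an adjusted p under 0.05 (0% of all tested probe sets in either direction), and 0 of the 85 had an unadjusted p under 0.05, where 1.64% of all tested probe sets were higher and 1.38% lower in NTD embryos. The log2 fold change was above 0 for 39 of the 85 (45.9%; 49.7% of all tested), with a median of -0.02 and a range from -0.33 to 0.47. With quantile normalization it was above 0 for 51 of the 85, with a median of 0.01. The median was 0.04 without no-NTD embryo 1 and -0.11 without no-NTD embryo 3.

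The 5 probe sets of smallest p in this comparison were 1456436_x_at of Rps20, 1453096_x_at of Rpl27, 1435712_a_at of Rps18, that of Rps4l and 1426958_at of Rps9. Their limma adjusted p was 0.999. For Rps20, the signal was 9878 and 9275 in NTD embryos and 8061, 8986 and 8013 in no-NTD embryos, which did not overlap, and the log2 fold change was 0.20 ± 0.12 (SE; exact two-sided permutation p = 0.2, where 10 splits allow 0.1 at the least). For Rpl27, it was 4255 and 3469 in NTD embryos and 2653, 4311 and 1886 in no-NTD embryos, with overlap and a log2 fold change of 0.46 ± 0.28 (SE). The values were -0.26 for Rps18, 0.25 for Rps4l and -0.33 for Rps9. Both comparisons with controls share the same 2 control embryos, and the family's median log2 fold change was 0.13 for NTD embryos and 0.13 for no-NTD embryos over controls, without quantile normalization.

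Genes that work beside the ribosomal proteins were described from lists by the same counts, and none of their probe sets was called by limma in either comparison. Their counts at an unadjusted p under 0.05 stand beside 7.63% higher and 8.52% lower over all tested probe sets. Of 4 further constituents and relatives, 0 had an unadjusted p under 0.05, with a median log2 fold change of exposed over control embryos of 0.06, or -0.04 with quantile normalization. Fau, which fuses a ubiquitin-like protein to Rps30, gave 0.22 ± 0.11 (SE), and Rps3a1, a small-subunit protein, gave 0.18 ± 0.10 (SE), or 0.06 and -0.01 with quantile normalization. Of 15 translation factors with TOP mRNAs, 1 was higher and 0 lower at an unadjusted p under 0.05, with a median of 0.08, or -0.07 with quantile normalization. The probe set with the low p was that of Eef2, the translocase of elongation, with 10254 and 11626 in NTD embryos, 14711, 11214 and 11832 in no-NTD embryos and 9648 and 9704 in controls (log2 fold change 0.29 ± 0.13, SE; limma adjusted p = 0.293), or 0.15 with quantile normalization.

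Of 46 tested genes of ribosome assembly and RNA polymerase I, 2 were higher and 1 lower at an unadjusted p under 0.05, with a median of 0.02, also with quantile normalization. Nop10, a component of the particles that guide pseudouridine formation, read 5374 and 6203 in NTD embryos, 6389, 5655 and 5606 in no-NTD embryos and 4130 and 4556 in controls (log2 fold change 0.43 ± 0.11, SE; limma adjusted p = 0.109). Tcof1, which is mutated in Treacher Collins syndrome in humans, gave 0.40 ± 0.14 (SE; limma adjusted p = 0.195). Polr1b, the second-largest subunit of RNA polymerase I, read 364 and 352 in NTD embryos, 403, 455 and 354 in no-NTD embryos and 537 and 508 in controls (-0.45 ± 0.15, SE; limma adjusted p = 0.185). For each of these genes the exposed embryos did not overlap the controls. Over the list, all exposed embryos lay above both controls for 4 of the 46 (11.4% of all tested probe sets) and below both for 3 (13.4% of all).

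Of 12 tested genes that control growth, 4 were higher and 1 lower at an unadjusted p under 0.05, with a median of 0.04, or 0.05 with quantile normalization. Myc, a transcription factor that drives ribosome production, read 427 and 528 in NTD embryos, 576, 473 and 494 in no-NTD embryos and 345 and 321 in controls (log2 fold change 0.58 ± 0.15, SE; limma adjusted p = 0.111). Its relative Mycn gave 0.49 ± 0.20 (SE; limma adjusted p = 0.266), and Eif4ebp2, a translation repressor that mTOR phosphorylates, gave 0.35 ± 0.12 (SE; limma adjusted p = 0.19). For these 3 of the 12 genes all exposed embryos lay above both controls (11.4% of all tested probe sets), and for 0 all lay below both (13.4% of all). Eif4ebp1, another such repressor, gave 0.55 ± 0.24 (SE; limma adjusted p = 0.299), with overlapping groups. The gene lower at this level was Mxd4, an antagonist of Myc, with 277 and 400 in NTD embryos, 276, 286 and 281 in no-NTD embryos and 385 and 427 in controls (-0.43 ± 0.18, SE; limma adjusted p = 0.27), also with overlap.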

How the data were processed

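RNA of 7 whole embryos was hybridized to 1 array each. The deposited values are linear intensities, MAS5 signals, and their trimmed mean, computed here, is 500.2 on each array. For MAS5 no version and no scaling target are given in the sources used here. The array annotation gives 1 symbol for 20393 probe sets, several for 691 and none for 1606.

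After 64 control probe sets were set aside, those that reached the 40th percentile in 2 or more arrays, 14554 in all, were tested on log2 signals, where a signal below 1 counted as 1. Exposed embryos (5) and controls (2) were compared with limma 3.58.1 (R 4.3.3), with the spread fitted as a trend of the signal, and embryos with and without NTD in a fit of 3 groups that share an estimate of the spread. P-values were adjusted by the Benjamini-Hochberg method over all tested probe sets, and called under 0.05. The number of arrays limits the precision. Single values were compared by exact permutation. No value was imputed and no embryo was left out of the main values.

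Probe sets to name were the 8 of smallest p with a higher and the 8 with a lower mean in exposed embryos, the 5 of smallest p between NTD and no-NTD embryos, those of genes with a set role, and up to 3 from each list beside the family. The members and lists were chosen with earlier results of these data known. Alternatives were quantile normalization, median centring, a floor of 16, an offset of 50, other filters, no trend, array quality weights (statmod 1.5.0), the replicate number as a block, other groupings, the t-test of the study's methods, probe sets with several symbols added, 1 probe set per gene, and each embryo left out. The limma fits were tested on simulated data.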

Additional observations from a re-analysis of the deposited data

Results flagged for a closer look

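In 18 of 114 sets of values, an exposed embryo stood so far from the other 4 that its gap to the nearest exceeded 0.71 of the range of the 5, Dixon's limit at 95%, which chance passes in about 1 of 20 groups. The sets were the tested ribosomal protein probe sets, named ones below the filter, up to 5 of smallest p from each list beside the family and 3 medians over the family. Probe sets of the same arrays are not independent of each other. Ribosomal protein probe sets accounted for 15 of the 18. In 12 of these no-NTD embryo 1 had the highest signal.

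Its signal was 20957 for Rps18 (1435712_a_at, other exposed embryos 13145 to 14655), 19008 for Rps18 (1448739_x_at, others 14831 to 15923), 21413 for Rpl38 (others 17522 to 17990) and 24747 for Rpsa (1448245_at, others 16550 to 18177). For Rpl35 it was 16743 (1434231_x_at, others 12253 to 13317) and 11411 (1436840_x_at, others 9447 to 9933). It was 17280 for Rpl37a (1460543_x_at, others 13743 to 14331), 31036 for Rpl41 (1455578_x_at, others 23201 to 24094) and 15416 for Rps10 (1416719_a_at, others 12986 to 13648). For Rps26, Rps29 (1415833_x_at) and Rps3 it was 16629 (others 12503 to 13369), 23947 (others 15208 to 17155) and 22430 (others 15424 to 17165).

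No-NTD embryo 3 was lowest for Rps18 (1455572_x_at) at 12423, with the others at 14863 to 15251, and for Rps29 (1438859_x_at) at 10781, with the others at 13131 to 14123. For Rps4l, no-NTD embryo 2 was lowest at 718, with the others at 947 to 1039.

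Beside the family, no-NTD embryo 1 was highest for Tpt1 at 25749, with the others at 19671 to 20894, and lowest for Rpl7l1 at 858, with the others at 1386 to 1564. NTD embryo 2 was highest for Mxd4 at 400.4, with the others at 276 to 286.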

How the results depend on the processing

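No ribosomal protein probe set was called between exposed and control embryos, or between embryos with and without NTD, under any alternative run except array quality weights, which called 3 as higher in exposed embryos, with 1.49% of all tested probe sets called higher and 1.88% lower. The count higher at an unadjusted p under 0.05 was 10 of 85 in the reported values (7.63% of all tested probe sets). It was 6 with quantile normalization (7.84% of all), 16 with median centring (8%), 5 with no trend (7.32%) and 20 with array quality weights (10.5%). It was 4 with only embryos without NTD and controls (6.86%) and 19 by the methods' t-test (7.68%). With other members, it was 6 of 96 with no filter (6.14%). It was 20 over the 85 and the 96 with several symbols together, and 4 of 43 with 1 probe set per gene (7.63% for both). With an exposed embryo left out, it ranged from 5 without NTD embryo 1 (7.76%) to 20 without no-NTD embryo 3 (7.22%). The count lower, 1 (8.52% of all tested probe sets), was 3 with quantile normalization (8.18%), 2 of 96 with no filter (6.58%), 0 with no trend (8.33%) and 2 with several symbols added (8.52%). It was 0 to 1 with an exposed embryo left out (8% to 8.82%). The median log2 fold change, 0.13, was -0.026 with quantile normalization, which sets all arrays to the same distribution, and 0.10 to 0.16 with an embryo left out. Between embryos with and without NTD it was -0.11 to 0.04 with an embryo left out. For Rps25 the log2 fold change of -0.07 was 0.0095 without no-NTD embryo 1, 0.017 without control 1 and -0.154 without control 2. Other causes of these shifts were not tested.

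Deviations from the group mean of embryos of the same number correlated at -0.248 to 0.0264. In a group of 2 embryos these deviations mirror each other, so the correlations cannot decide whether the numbers pair the embryos. With the replicate number as a block, 20 were higher and 0 lower at an unadjusted p under 0.05 (6.44% and 7.39% of all tested probe sets). The median log2 fold change was 0.16 between exposed and control embryos and -0.11 between embryos with and without NTD, and 0 were called. Only no-NTD embryo 3 has the number 3, so the block fits that embryo on its own. The medians are therefore those obtained without no-NTD embryo 3, and the block is not a separate check.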
